A study of Drosophila melanogaster with 44 samples.

Results

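The genes described here are those whose RNA stood far higher in ovaries of Mod(mdg4)-N mutant flies than in wild-type ovaries. They were selected on the ovary values themselves: the lowest of the 3 mutant libraries had to reach 1 TPM and at least 3 times the highest of the 3 wild-type libraries. TPM, the unit of the deposited tables, is an abundance scaled for gene length and library depth. Of 17807 genes listed, 78 passed (0.438%), and 8 of these were set aside by name (pk, Dad, Dscam4, hpRNA:CR18854 and 4 antisense RNAs), which left 70 genes. The same rule turned round, wild type over mutant, was met by 24 genes (0.135%). Because the ovary values chose the genes, their ovary levels are given as a description without a test. Tests were kept for the cell culture libraries, which the rule did not use, and for other genes in the ovary.

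Mutant ovaries came from flies of the y1 w1118 background with the allele Mod(mdg4) RN1-2/1-2, a single CRISPR-made frameshift in the exon particular to variant N, present on both chromosomes (n = 3), and wild-type ovaries from y1 w1118 flies (n = 3). Both were whole ovaries of flies kept at 25 °C. The mutants carry 1 allele in 1 line, so that the allele and other differences between the lines cannot be told apart. OSCs, a cultured line of Drosophila ovarian somatic cells, were treated with siRNA against Mod(mdg4)-N (N KD, n = 2), against all Mod(mdg4) variants (All KD, n = 2) or against EGFP (EGFP KD, n = 2), the last shared as the control of both knockdowns. The labels do not say whether replicates were separate animals or cultures, so that p-values measure the spread between these libraries only. The ChIP and Micro-C samples were not analysed here.

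Mod(mdg4) is a chromatin protein made in many variants that share an N-terminal BTB domain and differ in their C-terminal part, which in most variants holds a zinc finger. The locus is best known for its role in insulators, DNA elements that limit the reach of enhancers and silencers. An ovary holds germ cells, nurse cells and oocytes wrapped in somatic follicle cells, and in whole-ovary RNA a gene that is off in most cells can be carried by a few. In such bulk samples more cells of a type and more RNA per cell cannot be told apart.

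Libraries held between 13728154 and 20244537 counts. RNA of mod(mdg4) as a whole, all variants summed, was 359, 520 and 625 TPM in mutant ovaries and 528, 627 and 792 TPM in wild-type ovaries (log2 difference -0.42 ± 0.18, edgeR adjusted p = 0.134). It fell by 2.47 ± 0.09 on the log2 scale (SE) in All KD, with an edgeR adjusted p of 0.000366, and differed by -0.12 ± 0.07 in N KD (adjusted p = 0.9998). Variant N is 1 of many in this sum, so gene totals do not show its loss. The summed level of 11 germline markers was 2260 to 2332 TPM in mutant and 1750 to 1937 TPM in wild-type ovaries. That of 17 late follicle and eggshell secretion genes was 1032 to 1529 TPM in mutant and 417 to 1037 TPM in wild-type ovaries. In wild-type replicates 1, 2 and 3 Femcoat of this list had 0.33, 82.1 and 253 TPM, and yellow-g had 0.49, 210 and 72.1 TPM. Like these, yellow-g2 and CG4009 were under 1 TPM in wild-type replicate 1 alone of the ovary libraries. Other genes of the list, such as psd (102, 119 and 130 TPM in the wild type), were not. The 17 muscle markers summed to 124 to 201 TPM in mutant and 147 to 275 TPM in wild-type ovaries, and the 10 neuron markers to 1.12 to 1.41 TPM in mutant and 0.37 to 1.11 TPM in wild-type ovaries, with all 10 under 1 TPM in every ovary library. The sum of 26 immune effector genes was 31.4, 74.3 and 51.3 TPM in mutant and 276, 3864 and 56.3 TPM in wild-type ovaries, so that wild-type replicate 2 stood apart, led by the stress peptide genes TotA (1610 TPM) and TotC (1105 TPM). The parts of cell composition and of wild-type replicates 1 and 2 in the ovary levels were not tested. All 70 genes meet the rule without wild-type replicate 1 or without wild-type replicate 2 as well, since leaving out a library can only widen the choice.

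The 70 genes spanned a wide range of levels in mutant ovaries, with a median of mean values of 8.76 TPM in mutant and 0.705 TPM in wild-type ovaries. The mean in mutant ovaries was under 5 TPM for 19 genes, 5 to 20 TPM for 28, 20 to 50 TPM for 14 and 50 TPM or more for 9. In wild-type ovaries 35 of the 70 were under 1 TPM in every library, and 3 had no read in any. The ratio of the mutant to the wild-type mean had a median of 12.4, with those 3 genes entered at a lower bound, and it was 10 or more for 42 genes and under 5 for 12.

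**Figure D1:**
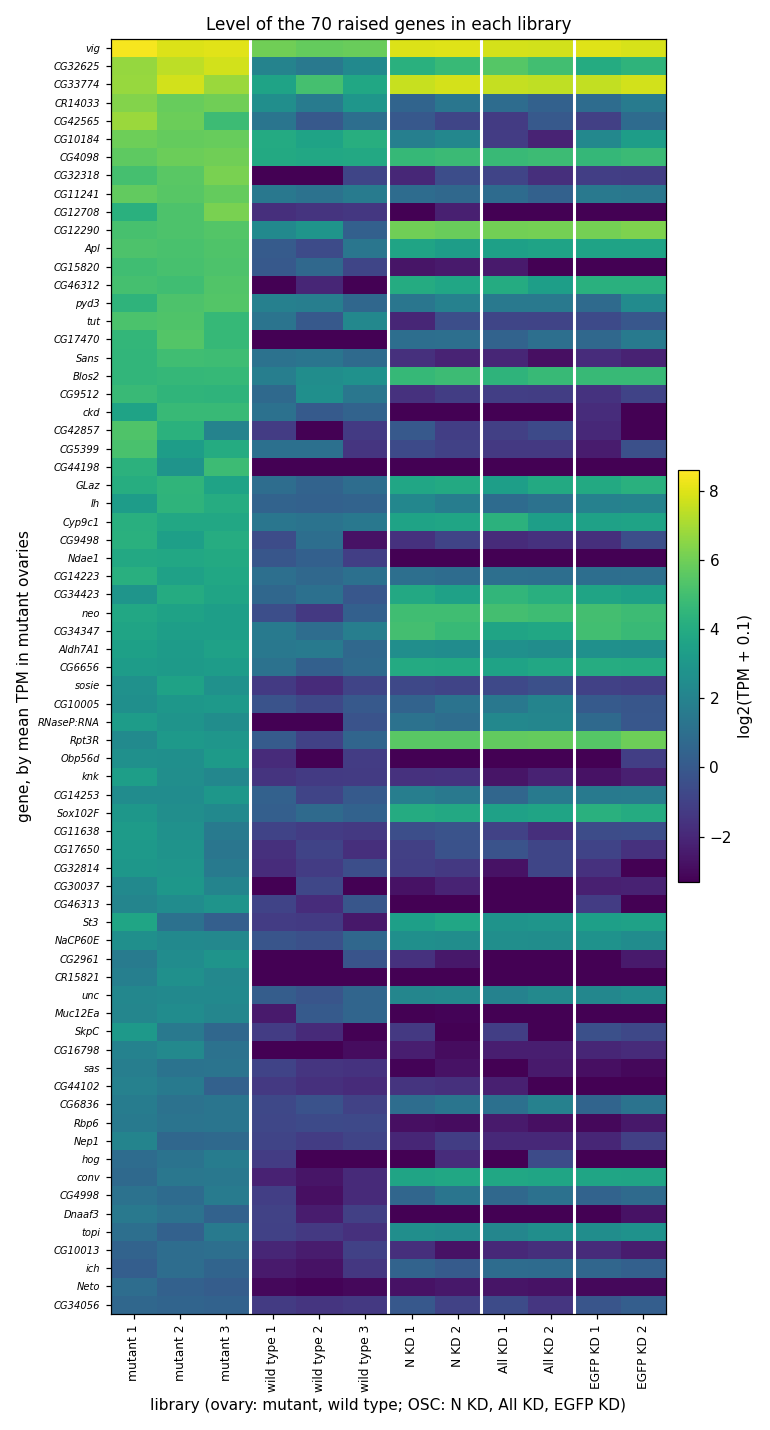
Level of each of the 70 genes (rows, ordered by the mean in mutant ovaries) in each of the 12 libraries (columns), as log2 of TPM plus 0.1, with white lines between groups. The 3 mutant columns are lighter than the 3 wild-type columns in every row, as the rule requires, while the OSC columns are light for some rows (vig, CG33774, Rpt3R) and at the bottom of the scale for others (Ndae1, CG44198).

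The clearest contrasts were genes with almost no wild-type RNA. CG17470 had 23.9, 42.6 and 25.5 TPM in mutant ovaries and 0 TPM in all 3 wild-type ovaries, where no read was counted. Against a floor of 3 counts in each wild-type library it was at least 106.5-fold higher in mutants. CR15821, annotated as a pseudogene, had 3.39, 6.32 and 4.66 TPM in mutant ovaries and 0 TPM in the wild type, at least 18.5-fold higher by the same floor.

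CG44198, a short gene, was also at 0 in wild-type ovaries, but it rested on 14, 5 and 21 counts in the mutants, so that it was at least 3.96-fold higher by the same floor. CG12708 had 18.8, 38.8 and 74.7 TPM in mutant ovaries and 0.2, 0.25 and 0.28 TPM in wild-type ovaries. Its mutant libraries differed among themselves by 3.98-fold, far more than its wild-type libraries. CG15820, which lies beside CR15821, had 30.8, 35.4 and 38.9 TPM in mutant ovaries and 0.92, 1.51 and 0.47 TPM in wild-type ovaries, and was near-constant across the mutants.

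The bases just before the annotated starts of 4 of these genes are shown because their RNA was nearly confined to the mutant in these 6 ovary libraries. Each run holds the 150 bases upstream of the start, 5′ to 3′ on the strand of the gene, in Release 6 (dm6) coordinates of the NCBI RefSeq assembly, with TATAAA and GAGAG or their reverse complements in capitals.
CG17470 (chr2L:20643245-20643394, minus strand): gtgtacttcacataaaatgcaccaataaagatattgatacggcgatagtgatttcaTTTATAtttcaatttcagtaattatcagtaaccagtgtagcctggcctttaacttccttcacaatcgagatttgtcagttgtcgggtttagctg
CG12708 (chrX:15675326-15675475, plus strand): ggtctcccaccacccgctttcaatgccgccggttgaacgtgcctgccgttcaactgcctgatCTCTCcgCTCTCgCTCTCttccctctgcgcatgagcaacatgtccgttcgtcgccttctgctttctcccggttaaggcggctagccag
CG15820 (chr3L:2174333-2174482, minus strand): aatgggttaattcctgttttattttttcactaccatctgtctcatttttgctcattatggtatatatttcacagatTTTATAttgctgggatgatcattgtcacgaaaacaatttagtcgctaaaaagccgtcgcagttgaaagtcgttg
CG44198 (chr2L:13119135-13119284, minus strand): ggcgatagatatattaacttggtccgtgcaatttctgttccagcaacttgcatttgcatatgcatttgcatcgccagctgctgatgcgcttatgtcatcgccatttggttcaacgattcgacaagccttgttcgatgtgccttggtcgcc
CG12708 carried 3 copies of GAGAG, read on the other strand as CTCTC, and CG17470 and CG15820 each carried TATAAA on the other strand. CG44198 held neither motif in this window.

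Others of the 10 genes with the largest ratio share sequence with another gene. CG32318 had 33.5, 47.0 and 73.3 TPM in mutant ovaries and 0, 0 and 0.46 TPM in wild-type ovaries. Over 75% of its transcript it was 100% identical to Klp61F, which encodes a mitotic kinesin. Klp61F itself had 19.5, 29.6 and 37.4 TPM in mutant and 22.4, 30.2 and 35.2 TPM in wild-type ovaries, a difference of -0.07 ± 0.21 (log2, SE; edgeR adjusted p = 0.833), so that reads assigned to CG32318 rest on the rest of its length and on RSEM's split of shared reads.

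CG46312 had 33.3, 30.8 and 40.8 TPM in mutant ovaries and 0, 0.14 and 0 TPM in wild-type ovaries. All of its exon bases lie within exons of eIF5, a translation initiation factor on the same strand, which had 328, 264 and 281 TPM in mutant and 235, 272 and 251 TPM in wild-type ovaries (log2 difference 0.20 ± 0.14, adjusted p = 0.326). The level of CG46312 therefore depends on how RSEM split the reads of the pair. CG16798 had 3.75, 4.83 and 2.15 TPM in mutant and 0, 0 and 0.03 TPM in wild-type ovaries. CG11241 had 53.1, 44.8 and 54.7 TPM in mutant and 2.6, 2.15 and 3.02 TPM in wild-type ovaries, with both groups narrow.

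**Figure D2:**
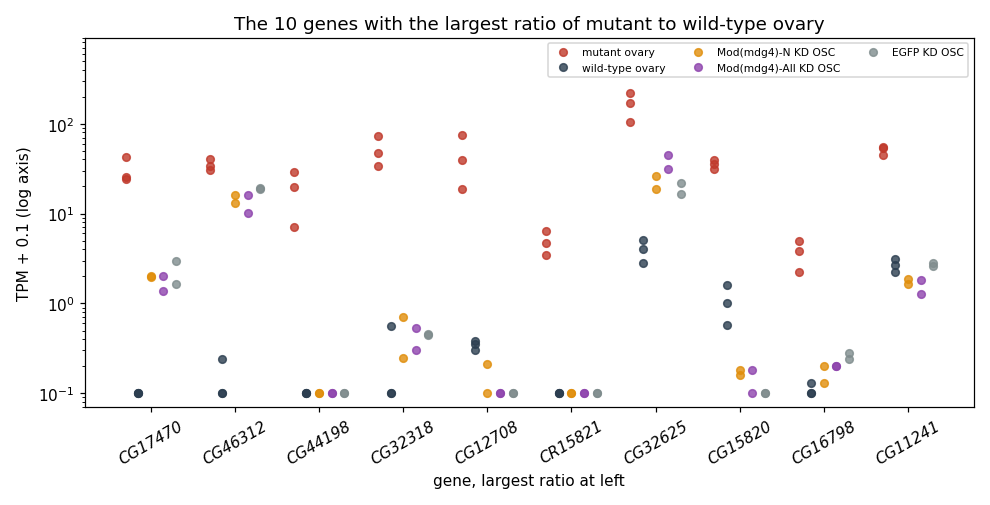
TPM plus 0.1 (log axis) in each library for the 10 genes with the largest ratio of the lowest mutant to the highest wild-type value, 1 point per library, in mutant ovaries, wild-type ovaries and the 3 OSC groups. Mutant points of CG17470 lie at 23.9 to 42.6 TPM above wild-type points at 0, CG46312 and CG32625 are also present in OSCs, and CG44198 and CR15821 are at 0 TPM in all 6 OSC libraries.

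vig encodes a protein found in the RNA-induced silencing complex, and its gene lies inside the span of vas, a germline helicase gene. It had the highest level of the set, 350.5, 249 and 271 TPM in mutant ovaries and 65.3, 54.7 and 58.8 TPM in wild-type ovaries. vas stood at 91.3, 100.1 and 89.2 TPM in mutant and 128, 124 and 139 TPM in wild-type ovaries and fell by 0.50 ± 0.10 (log2, SE; edgeR adjusted p = 0.0222), while no exon base of vig is shared with it. That call was lost without mutant replicate 2 (adjusted p = 0.0759) and without wild-type replicate 1, 2 or 3 (0.0562, 0.0747 and 0.0574).

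CG32625 had 104, 169 and 217 TPM in mutant ovaries and 3.95, 2.74 and 5.03 TPM in wild-type ovaries. CG33774 had 108, 221 and 112 TPM in mutant ovaries and 12.1, 34.2 and 13.7 TPM in wild-type ovaries, with replicate 2 highest in both groups. The pseudogene CR14033, on the strand opposite to the BMP receptor gene tkv, had 83.1, 56.2 and 63.8 TPM in mutant ovaries and 5.86, 3 and 7.55 TPM in wild-type ovaries. These 3 genes did not overlap between groups, as the rule demands, but CG33774 came close, its lowest mutant value being 3.16 times its highest wild-type value.

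CG42565 had 112, 60.0 and 29.1 TPM in mutant ovaries and 2.39, 0.89 and 1.85 TPM in wild-type ovaries. All of its exon bases are shared on the same strand with CG13510 (38.1, 28.8 and 14 TPM in mutant and 48.4, 42.5 and 9.28 TPM in wild-type ovaries). They are shared with CG13511 too, which had at most 0.23 TPM in any ovary library. The level of CG42565 therefore depends on how RSEM split the shared reads. CG10184 had 63.4, 54.2 and 55.9 TPM in mutant ovaries and 15.5, 11.9 and 17.9 TPM in wild-type ovaries. CG4098 had 49.2, 60.1 and 63.8 TPM in mutant ovaries and 15.2, 14.3 and 14.5 TPM in wild-type ovaries. CR18217, a copy that shares 51.1% of the CG4098 transcript, had 21.6, 24.7 and 28.7 TPM in mutant and 19.1, 11.3 and 16.1 TPM in wild-type ovaries. For CG10184 and CG4098 the mutant libraries were narrow and the wild-type level was far from 0.

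A role could be assigned from general knowledge to 30 of the 70 genes, and the other 40 are not described by function here. Named genes (those with a symbol other than a CG or CR number) made up 47.1% of the 70, against 68.4% of all genes at 1 TPM or more in every mutant library. The roles covered several unrelated processes, and the groups below were drawn up with the values known.

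Of 4 genes of ion transport and excitability, Ndae1, a sodium-driven anion exchanger, had 14.6, 14 and 15.2 TPM in mutant ovaries and 0.8, 1.17 and 0.36 TPM in wild-type ovaries, and it was at 0 TPM in all 6 OSC libraries. Ih, a hyperpolarization-activated cation channel, had 9.58, 21.4 and 16.4 TPM in mutant ovaries and 1.28, 1.2 and 1.29 TPM in wild-type ovaries. NaCP60E, a relative of voltage-gated sodium channels, had 6.02, 5 and 4.6 TPM in mutant ovaries and 0.78, 0.66 and 1.46 TPM in wild-type ovaries. In EGFP KD, Ih had 3.71 and 3.88 TPM and NaCP60E had 6.75 and 5.5 TPM. Ndae1, Ih and NaCP60E are all known from excitable or epithelial cells. The 10 neuron markers, each under 1 TPM in all ovary libraries, summed to 1.12 to 1.41 TPM in mutant and 0.37 to 1.11 TPM in wild-type ovaries. Which cells carried the RNA of these 3 genes was not tested. Neto, an auxiliary subunit of glutamate receptors at the fly neuromuscular junction, averaged 1.36 ± 0.42 TPM in mutant and 0.0167 ± 0.0058 TPM in wild-type ovaries (SD, n = 3 each).

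Of the set, 7 genes bind RNA, are RNA or act in transcription. tut, an RNA-binding protein known from the fly testis as a partner of Bam and Bgcn, had 37.7, 40.1 and 25.2 TPM in mutant ovaries and 2.31, 0.92 and 4.57 TPM in wild-type ovaries. The germline marker bam, a differentiation factor outside the set, had 90.2, 100.3 and 98.6 TPM in mutant and 22.2, 28.2 and 34.7 TPM in wild-type ovaries and rose by 1.74 ± 0.15 (log2, SE; edgeR adjusted p = 0.00331, and 0.0243 without wild-type replicate 2). Sox102F, an HMG-box transcription factor, averaged 6.20 ± 1.41 TPM in mutant and 1.34 ± 0.28 TPM in wild-type ovaries. Rbp6, a Musashi-like RNA-binding protein, averaged 2.52 ± 0.32 TPM in mutant and 0.51 ± 0.02 TPM in wild-type ovaries. ich, a zinc-finger factor of the trachea, averaged 1.41 ± 0.39 TPM in mutant and 0.137 ± 0.125 TPM in wild-type ovaries (SD, n = 3 each). RNaseP:RNA, the RNA of the tRNA-processing enzyme, had 9.41, 7.18 and 5.58 TPM in mutant ovaries and 0, 0 and 0.72 TPM in wild-type ovaries. It is not a polyadenylated RNA by nature, it rested on as few as 8 counts in a mutant library, and it lies inside ATPsynC, which itself rose by 0.88 ± 0.13 (log2, SE; adjusted p = 0.0115), though not past the threshold without mutant replicate 2 (0.0583) or wild-type replicate 2 (0.062).

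Genes of the cell surface and matrix included knk, needed for the order of chitin in cuticle, with 10.1, 5.8 and 4.48 TPM in mutant ovaries and 0.25, 0.31 and 0.32 TPM in wild-type ovaries. neo, a zona pellucida domain protein of the apical matrix, had 14.2, 11.5 and 10.3 TPM in mutant ovaries and 0.62, 0.3 and 1.15 TPM in wild-type ovaries. The lowest mutant value was 14.0 times the highest wild-type value for knk and 8.94 times for neo. conv, a leucine-rich repeat protein of tracheal tubes, sas, an apical membrane protein, and Muc12Ea, a mucin, were lower, with mutant means between 2.26 and 4.69 TPM.

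Genes of metabolism and ligand binding included pyd3, an enzyme of pyrimidine breakdown, with 21.4, 38.9 and 42.8 TPM in mutant ovaries and 3.54, 3.29 and 1.46 TPM in wild-type ovaries. GLaz, a lipocalin related to apolipoprotein D, had 17.1, 22.1 and 12.1 TPM in mutant ovaries and 1.84, 1.31 and 1.84 TPM in wild-type ovaries. The cytochrome P450 gene Cyp9c1 had 18.3, 13.9 and 14.2 TPM in mutant ovaries and 2.43, 2.2 and 2.62 TPM in wild-type ovaries. In Cyp9c1 both groups were narrow relative to the gap between them, whereas the mutant libraries of pyd3 and GLaz were wider. The highest mutant library was 2.00 times the lowest for pyd3, 1.83 times for GLaz and 1.32 times for Cyp9c1. Aldh7A1, an aldehyde dehydrogenase, averaged 10.5 ± 1.06 TPM in mutant and 2.32 ± 0.69 TPM in wild-type ovaries (SD, n = 3 each), and the odorant-binding protein gene Obp56d averaged 7 ± 1.55 TPM in mutant and 0.173 ± 0.170 TPM in wild-type ovaries.

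Among genes of trafficking and protein turnover, Apl had 38.6, 36.1 and 39.7 TPM in mutant ovaries and 0.97, 0.57 and 2.43 TPM in wild-type ovaries. Its transcript is 99.1% identical over 75.2% of its length to that of its neighbour Arts, an importin gene, which had 126, 138 and 150 TPM in mutant and 141, 154 and 162 TPM in wild-type ovaries (log2 difference -0.18 ± 0.07, edgeR adjusted p = 0.105). A shift of reads between the copies cannot be told apart from a change of Apl at this level of the data. Blos2, a subunit of the BLOC-1 complex of lysosome-related organelles, had 22.8, 24.3 and 25.1 TPM in mutant ovaries and 3.34, 5.65 and 6.39 TPM in wild-type ovaries. CG32069, which shares 85 exon bases with it on the other strand, had 138, 120 and 116 TPM in mutant and 41.0, 44 and 31.0 TPM in wild-type ovaries (log2 difference 1.66 ± 0.25, adjusted p = 0.0106, or 0.0577 without mutant replicate 2 and 0.0508 without wild-type replicate 2). Rpt3R, a testis form of a proteasome subunit, had 5.18, 8.7 and 7.51 TPM in mutant ovaries and 0.97, 0.4 and 1.38 TPM in wild-type ovaries.

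Sans, a scaffold related to a human Usher syndrome protein, had 23.3, 30.8 and 29.6 TPM in mutant ovaries and 2.12, 2.36 and 1.65 TPM in wild-type ovaries. unc, a basal body protein, and Dnaaf3, an assembly factor of axonemal dynein, were lower, with mutant means of 4.78 and 2.03 TPM and wild-type means of 1.08 and 0.293 TPM.

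Among the genes without an assigned role, ckd had 11.8, 26.0 and 26.1 TPM in mutant ovaries and 2.08, 0.95 and 1.31 TPM in wild-type ovaries. CG9512, inside the span of Flo2, had 26.8, 22.3 and 21.6 TPM in mutant ovaries and 1.59, 6 and 2.59 TPM in wild-type ovaries. CG9498 had 18.7, 10.6 and 16.6 TPM in mutant ovaries and 0.58, 1.88 and 0.05 TPM in wild-type ovaries. The wild-type libraries of the last pair varied more than the mutant ones in proportion, and all 3 genes were under 1 TPM in every OSC library.

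CG5399 had 36.2, 9.92 and 15.9 TPM in mutant ovaries and 2, 2.03 and 0.26 TPM in wild-type ovaries. CG14223 had 18.4, 11.1 and 13.7 TPM in mutant ovaries and 1.96, 1.54 and 2 TPM in wild-type ovaries. sosie had 6.4, 11.6 and 6.51 TPM in mutant ovaries and 0.31, 0.18 and 0.44 TPM in wild-type ovaries. The wild-type level of CG14223 was matched in OSCs, where all 6 libraries held 1.75 to 1.94 TPM.

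CG30037 had 4.89, 7.79 and 4.11 TPM in mutant ovaries and 0, 0.48 and 0 TPM in wild-type ovaries. CG2961 had 3.01, 5.54 and 6.99 TPM in mutant ovaries and 0, 0 and 0.76 TPM in wild-type ovaries. CG17650 had 8.7, 6.85 and 2.49 TPM in mutant ovaries and 0.21, 0.43 and 0.2 TPM in wild-type ovaries. All 3 were under 1 TPM in each wild-type ovary and each OSC library. The lowest mutant mean of the set was that of CG34056, with 1.46, 1.33 and 1.25 TPM in mutant ovaries and 0.32, 0.26 and 0.3 TPM in wild-type ovaries, narrow in both groups.

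The highest mutant library was a median of 1.71 times the lowest, and 10 of the 70 genes differed by more than 3 times between mutant libraries. St3, a sulfotransferase gene, was the widest, with 12.6, 2.06 and 1.12 TPM in mutant ovaries and 0.34, 0.31 and 0.07 TPM in wild-type ovaries. CG42857 followed with 39.9, 19.3 and 3.92 TPM in mutant ovaries and 0.34, 0 and 0.31 TPM in wild-type ovaries. In SkpC, a Skp-family gene, the values were 8.71, 2.72 and 1.48 TPM in mutant ovaries and 0.33, 0.17 and 0 TPM in wild-type ovaries. Mutant 1 was the highest library in these 3 genes, but over all 70 the highest was mutant 1 for 29 genes, mutant 2 for 15 and mutant 3 for 26. In 7 genes the lowest mutant library held fewer than 20 counts.

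The genes nearest to the threshold were Dnaaf3 (ratio 3.00), CG10184 (3.03) and Sox102F (3.04) inside it, and CG3961 (2.93), CG7408 (2.90) and CG4297 (2.89) outside it. With TMM-scaled counts per kilobase in place of TPM, 60 of the 70 still met the rule and 3 others joined them. The 10 that left were CG10184, CG33774, CG34347, Dnaaf3, Muc12Ea, NaCP60E, Neto, Sox102F, St3 and topi.

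The 70 genes lay on 6 chromosome arms, 19 on 3R (27.1%, against 24% of all genes at 1 TPM or more in every mutant library), 14 each on 2R, 3L and X (20% each, against 20.2%, 19.3% and 17.6%), 8 on 2L (11.4% against 17.4%) and 1 on chromosome 4. Within 1 Mb of an arm end there were 6 of the 70 (8.57%, against 5.45%). Within 2 Mb of mod(mdg4) on 3R there was 1, CG6656 (1.43%, against 3.08%). The genes were thus spread over all arms but Y, with 2L the arm whose share lay farthest below that of genes at this level.

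Start sites of 12 genes lay within 20 kb of another of the set, in 6 pairs: conv and Ih on 2R, CR15821 with CG15820 and Apl with CG4098 on 3L, Rpt3R with topi and CG14253 with CG46313 on 3R, and CG32814 with CG11638 on X. CG46313 and CG14253 share a start and all exon bases of CG46313, and CG32814 and CG11638 begin 3 bases apart and share exon bases, so that the members of each of these pairs cannot be fully told apart. The pair of Rpt3R and topi, a testis transcription factor gene, lies within 3R:9754735-9777943. topi had 1.94, 1.22 and 2.82 TPM in mutant ovaries and 0.4, 0.29 and 0.21 TPM in wild-type ovaries. Of 22 testis markers matched, 20 were under 1 TPM in every ovary library. The others were topi and mia. The latter had 6.31, 8.29 and 4.64 TPM in mutant and 2.41, 2.45 and 4.05 TPM in wild-type ovaries (log2 difference 1.11 ± 0.35, edgeR adjusted p = 0.0679).

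The nearest gene on each side that was tested in ovary, did not overlap and did not itself meet the rule was taken as a neighbour. There were 132 neighbours, at a median distance of 12.8 kb between start sites. Of these, edgeR called 13 higher in mutants (9.85%) and 9 lower (6.82%). Of the 7863 genes tested that did not meet the rule, 10.9% were higher and 6.47% lower. In the fit that blocked on replicate number, 17 of the 132 neighbours were higher and 13 lower. Of all 7934 genes tested in that fit, those that met the rule included, 1172 were higher and 1107 lower. The count over all genes, 929 higher and 509 lower, leant on single libraries: it was 122 and 36 without wild-type replicate 2, 137 and 47 without mutant replicate 2, and between 517 and 587 higher and 251 and 299 lower without mutant replicate 1, wild-type replicate 1 or wild-type replicate 3. Of the neighbours, 2 were higher and 2 lower without wild-type replicate 2. Single neighbours picked after their values were seen went in either direction. CG15599, next to CG12708, had 3.47, 1.4 and 0.84 TPM in mutant and 0.06, 0.1 and 0.04 TPM in wild-type ovaries and rose by 4.84 ± 0.79 (log2, SE; adjusted p = 0.0135, or 0.0547 without mutant replicate 2 and 0.0584 without wild-type replicate 2). CAH7, a carbonic anhydrase gene next to knk, had 9.54, 10.9 and 10.2 TPM in mutant and 41.5, 46.1 and 39.3 TPM in wild-type ovaries and fell by 2.09 ± 0.11 (adjusted p = 0.0007). spd-2, a centrosome gene next to Apl, had 15.9, 24.2 and 35.9 TPM in mutant and 101, 130.1 and 138 TPM in wild-type ovaries and fell by 2.33 ± 0.25 (adjusted p = 0.005).

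In the 150 bases upstream of the annotated start, GAGAG or its reverse complement, the repeat bound by GAGA factor, was found for 21 of 70 genes (30.0%), against 16.5% of the other genes at 1 TPM or more in every mutant library and 17.5% of all genes. TATCGATA, the DNA replication-related element common in promoters of housekeeping genes, was found for 2 (2.86%), against 11.8% and 5.46%. TATAAA was found for 22 (31.4%), against 25.7% and 28.2%, and GGTCACAC, the core of the element named Motif 1, for 5 (7.14%), against 6.11% and 2.85%. Both strands were searched, and a match of letters is not a bound site. The windows of CG11638 and CG32814, each with TATAAA and GGTCACAC, overlap almost wholly and were counted separately. CG14253 and CG46313 have the same window, which held no match. The GAGAG matches included knk, neo, pyd3, Cyp9c1, Obp56d and CG12708.

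The genes were of ordinary build, 67 of 70 being annotated as protein coding (95.7%, against 96.6%). A single exon was annotated for 9 (12.9%, against 9.19%), and the median coding length was 1215 bases, against 1365 bases. Near-identical copies were found for 5 of 70 genes (7.14%), which matched another gene at 90% identity or more over at least 50% of their transcript, against 101 of 7522 genes at this level (1.34%). These were Apl (copy Arts), CG32318 (Klp61F), CG12708 (CG15646), CG4098 (CR18217) and SkpC (SkpD), and CG15646 and SkpD were under 0.1 TPM in every ovary library. Exon bases were shared with a gene on the same strand in 9 (12.9%, against 8.93%) and on the other strand in 21 (30%, against 37.9%). The listed RSEM options name no strandedness, so that reads from the shared bases of such opposite-strand pairs cannot be told apart. The shared part ran from 0.2% of the exon bases for Rbp6 to 98.2% for Cyp9c1, whose antisense partner was at most 0.31 TPM in any ovary library. For CG33774 it was 37.4%, shared with l(2)k10201, which had 42.1, 57.0 and 54.3 TPM in mutant and 45.7, 58.3 and 61.4 TPM in wild-type ovaries.

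**Figure D3:**
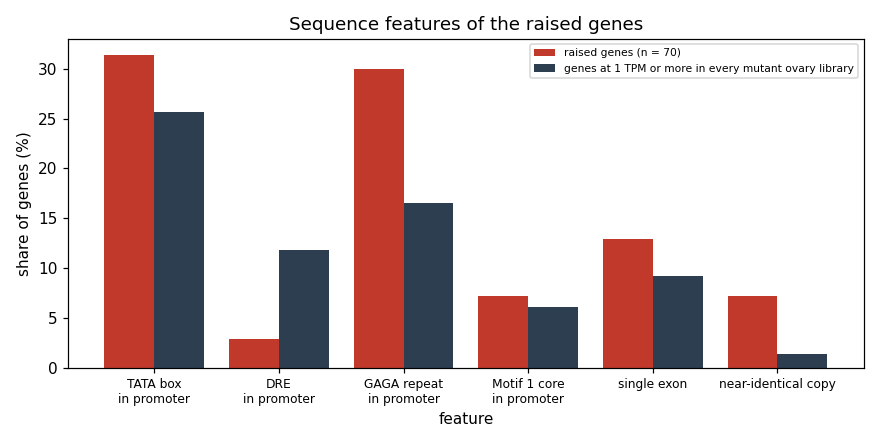
Share of genes (%) with each sequence feature among the 70 raised genes (left bar of each pair) and among genes at 1 TPM or more in every mutant ovary library (right bar): 4 motifs in the 150 bases upstream of the start, a single annotated exon, and a near-identical copy elsewhere. GAGA repeats were found for 30.0% against 16.5%, and near-identical copies for 7.14% against 1.34%.

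In EGFP KD, the control state of OSCs, 35 of the 70 genes reached a mean of 1 TPM (50%, against 45.0% of all other genes and 91.9% of the other genes at 1 TPM or more in every mutant library). Among the 35 under 1 TPM in all wild-type ovaries, 9 reached it (25.7%): CG17470, CG46312, conv, St3, topi, ich, RNaseP:RNA, CG4998 and CG6836. The share was 8.75% for the other genes as low in wild-type ovaries, and 52.5% for the 59 of these that were at 1 TPM or more in every mutant library. Among the 35 genes at 1 TPM or more in a wild-type library, 26 reached it (74.3%, against 86.6% of others).

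In 33 of the 70 genes both EGFP KD libraries were above the highest wild-type ovary, and in 14 both were below the lowest. In 13 genes the EGFP KD mean was at or above that of mutant ovaries. The same shares over all genes were not counted. The rule chose genes low in wild-type ovaries relative to the mutant, so these counts are a description only. Rpt3R had 43.2 and 63.3 TPM in EGFP KD, against 0.4 to 1.38 TPM in wild-type ovaries. neo had 32.7 and 28.9 TPM in EGFP KD, conv 12.9 and 12.4 TPM, and CG12290 69.2 and 78.6 TPM, all above their mutant ovary values. Sox102F had 18.6 and 16.1 TPM in EGFP KD and CG6656 16.6 and 16.3 TPM, against mutant ovary means of 6.20 and 9.36 TPM. Blos2, at 26.5 and 26.5 TPM in EGFP KD, GLaz, at 14.9 and 18.7 TPM, and unc, at 4.54 and 5.44 TPM, lay at or near their mutant ovary levels. CG33774 (180 and 223 TPM in EGFP KD) and vig (262 and 236 TPM in EGFP KD) were near their mutant ovary levels.

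Other genes of the set were at or near 0 in the cell line. Of the 70, 8 had 0 TPM in both EGFP KD libraries: Ndae1, CG44198, CG44102, CR15821, CG15820, Muc12Ea, hog and CG12708. tut, Sans and Rbp6 had EGFP KD means of 0.69, 0.155 and 0.045 TPM. CR14033, at 1.78 and 3 TPM in EGFP KD, lay far below its mutant ovary values. The ovary holds cell types that OSCs do not, and which ovary cells carried these RNAs was not tested.

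**Figure D4:**
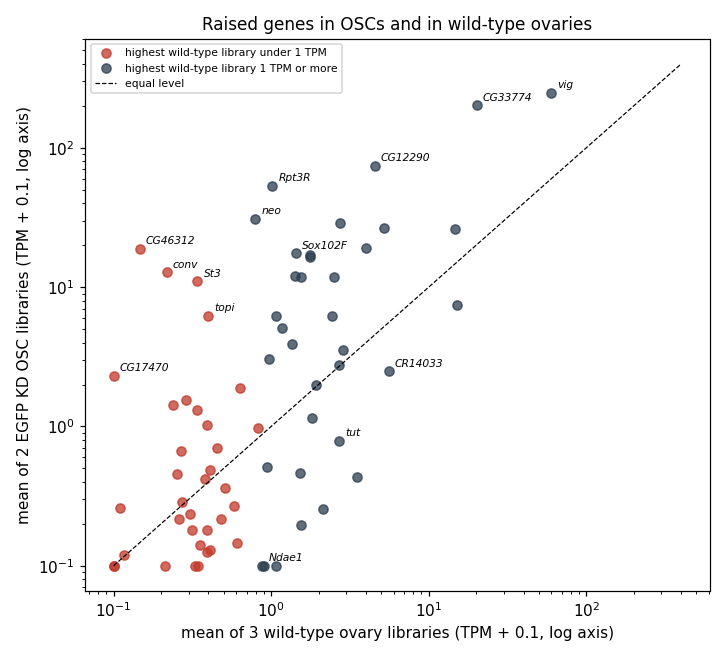
Mean of the 2 EGFP KD OSC libraries against the mean of the 3 wild-type ovary libraries (both TPM plus 0.1, log axes), 1 point per gene, coloured by whether the highest wild-type library was under 1 TPM, with a dashed line at equal level. Points far above the line include Rpt3R, neo, conv and CG46312, and points at the bottom edge, such as Ndae1, were at 0 TPM in OSCs.

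These libraries did not enter the choice of genes and asked whether loss of Mod(mdg4) in somatic cells in culture moved the same genes. Of the 70 genes, 35 passed the filter on low counts in N KD against EGFP KD, and none was called by edgeR (2 of 8106 genes were called, 0.0247%). DESeq2 and limma-voom also called none of the 35. By edgeR 2 of the 35 had an unadjusted p under 0.05 (5.71%, against 2.81% of all genes tested). Log2 fold changes ran between -0.85 and 0.45 with a median of -0.02, against a median of 0.00 over all genes tested, and 33 of the 35 lay within 0.5 of 0 (94.3%, against 97.0%). The 35 not tested were too low in OSCs to be compared.

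In All KD against EGFP KD 35 were tested, 2 were called lower and none higher, against 0.8% of all 8126 genes lower and 0.295% higher. CG10184 fell to 0.34 and 0.13 TPM in All KD, against 4.71 and 9.98 TPM in EGFP KD, by 4.81 ± 0.61 on the log2 scale (SE; edgeR adjusted p = 0.0247). It had 3.46 and 4.43 TPM in N KD (log2 difference -0.85 ± 0.36, adjusted p = 0.9998). CG34347 fell to 12.3 and 13.6 TPM in All KD, against 31.2 and 26.6 TPM in EGFP KD, by 1.06 ± 0.11 (adjusted p = 0.012), and had 32.4 and 26.0 TPM in N KD. Both genes were higher in mutant than in wild-type ovaries by the rule, so that the direction in All KD was the opposite one. The call of CG10184 was lost with limma-voom (adjusted p = 0.097) and without EGFP KD replicate 2 (adjusted p = 0.0981). Over all alternatives its adjusted p in All KD lay between 4.67e-08 and 0.0981. In N KD it was called only without EGFP KD replicate 1, at -1.30 ± 0.24 (adjusted p = 0.0377).

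Of the 35 tested in All KD, 8 had an unadjusted p under 0.05 (22.9%, against 12.9% of all genes tested), and 24 lay within 0.5 of 0 on the log2 scale (68.6%, against 90.2%), on both sides of 0. The highest was CG10005, at 2.64 and 4.02 TPM in All KD and 0.94 and 0.82 TPM in EGFP KD, with a log2 fold change of 1.99 ± 0.38 that missed the threshold (adjusted p = 0.0874, but 0.0482 with no filter on low counts). CG32625 had 44.2 and 31.5 TPM in All KD and 16.2 and 21.8 TPM in EGFP KD (1.11 ± 0.26, adjusted p = 0.143, but 0.0331 with DESeq2). CG34423, on the strand opposite to an antisense RNA, had 22.6 and 18.5 TPM in All KD and 12.3 and 11.0 TPM in EGFP KD (1.09, adjusted p = 0.198). Ih had 1.68 and 2.18 TPM in All KD and 3.71 and 3.88 TPM in EGFP KD (-0.79 ± 0.19, adjusted p = 0.152). Leaving out 1 All KD library added calls: CG10005 (adjusted p = 0.0387) and CG46312 (-0.86, adjusted p = 0.00695) without All KD replicate 1, and CG32625 (adjusted p = 0.00375), Cyp9c1 (0.96, adjusted p = 0.00317) and Ih (adjusted p = 0.0497) without All KD replicate 2. For vig the log2 difference was -0.04 in All KD and 0.11 in N KD, and for Rpt3R it was 0.14 and -0.15. Both knockdowns share the EGFP KD libraries, so that no agreement between them was read.

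**Figure D5:**
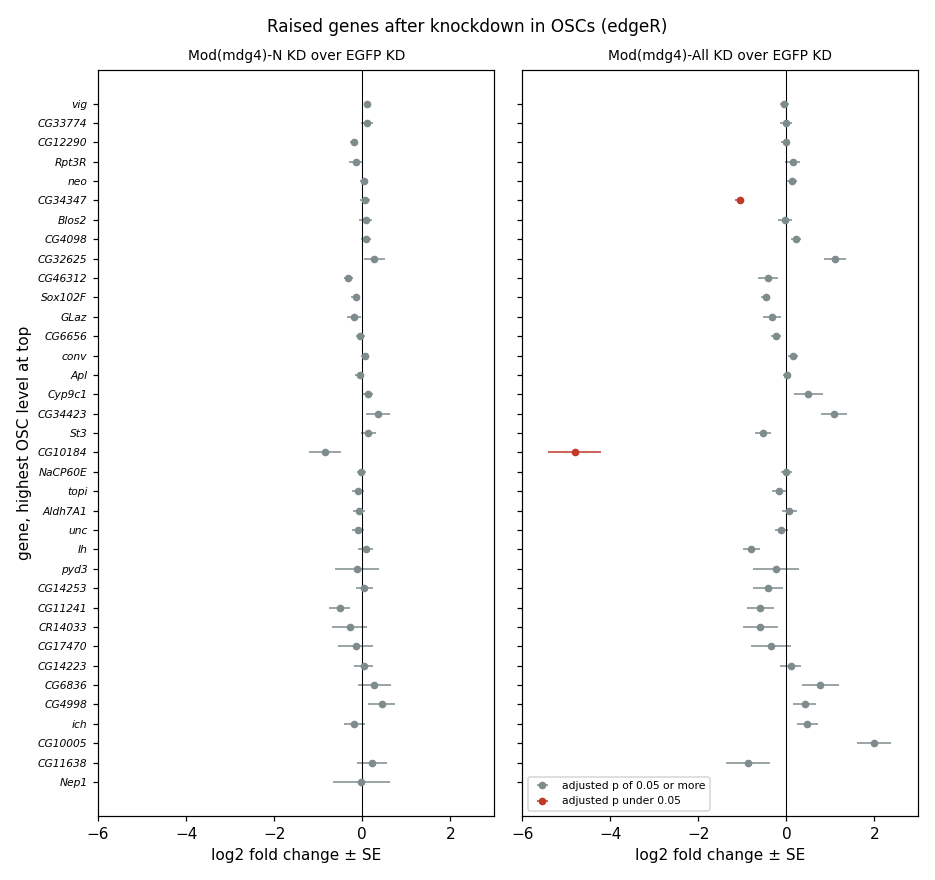
Log2 fold change with SE for the 36 genes that could be tested in at least 1 knockdown, N KD over EGFP KD (left) and All KD over EGFP KD (right), ordered by OSC level with the highest at the top; red marks an edgeR adjusted p under 0.05. In N KD no gene is marked, and in All KD the 2 marked genes are CG10184 at -4.81 and CG34347 at -1.06.

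Lists of genes with a common role held these of the 70: Ih of 49 ion channel and receptor genes, knk of 128 cuticle and chitin genes, Cyp9c1 of 154 detoxification genes, Obp56d of 266 chemosensory genes and topi of 22 testis genes. The lists were drawn up by symbol, in part by its first letters, which took in genes of other function. Cpr, a cytochrome P450 reductase gene, stands in the cuticle and chitin list. Cyp40, a cyclophilin gene, stands in the detoxification list. Neither of them was called in ovary. Over all 17807 genes 78 passed the rule before the exclusions by name (0.438%), so single genes in lists of this size are not read as a result. None of the 70 was among the lists of immune effectors, serine proteases and serpins, or adhesion molecules, nor among the markers of germline, follicle, muscle, fat body, haemocyte, neuron or gut cells. The counts that follow leave out every gene that passed the rule, Dscam4 included, since the rule fixes its direction in ovary. Over the 7863 genes tested in ovary that did not pass the rule, 10.9% were higher in mutants and 6.47% lower. With the block on replicate number, 1172 were higher and 1107 lower of all 7934 genes tested, those that passed the rule included.

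Of 12 other genes tested from the cuticle and chitin list, Cpr included, edgeR called 3 higher in mutant ovaries (25%) and 0 lower. Of the 12, 5 had an unadjusted p under 0.05, and the median log2 difference was 0.93, against -0.02 over all genes tested. The 3 were kkv, a chitin synthase, Cht2, a chitinase, and obst-B, a chitin-binding protein, and with the block Cht6 and serp were higher too. Cht2 had 83.1, 98.2 and 116 TPM in mutant ovaries and 20.8, 18.6 and 34.5 TPM in wild-type ovaries and rose by 1.99 ± 0.22 (log2, SE; edgeR adjusted p = 0.00547). obst-B rose by 1.88 ± 0.38 (adjusted p = 0.0229). Without wild-type replicate 2 the call of Cht2 alone remained, with an adjusted p of 0.0508 for kkv and 0.0943 for obst-B. Without mutant replicate 2 kkv and obst-B were also lost (0.0547 and 0.0959), and without mutant replicate 1 obst-B was (0.054).

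Of 70 other genes tested from the detoxification list, Cyp40 included, 5 were higher (7.14%) and 2 lower (2.86%), or 8 and 4 with the block. Of 10 other ion channel and receptor genes 1 was higher (cac, 10%) and 2 lower (20%), or 1 and 4 with the block. Of 12 other chemosensory genes none was called by edgeR or with the block, and 2 had an unadjusted p under 0.05. Of 20 other adhesion genes 5 were higher (25%) and 1 lower (5%), or 6 and 1 with the block. Of 17 serine proteases and serpins 2 were higher (ndl and Spn42Dc, 11.8%), of which ndl lost its call with the block. Of 5 immune effectors 1 was lower (AttB), with 0, 0.22 and 0.11 TPM in mutant and 2.21, 3.28 and 3.08 TPM in wild-type ovaries. For AttB wild-type replicate 2 did not stand apart. Its call was lost without that library, as were most ovary calls (158 left, against 1438).

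Of 11 germline markers 4 were higher (bam, bgcn, tud and zpg, 36.4%) and 1 lower (vas, 9.09%), and with the block bgcn was lost and AGO3 was lower. Of 9 follicle cell markers 1 was higher (br, 11.1%), joined by pnt with the block. Of 16 late follicle and eggshell genes 2 were higher (ndl and psd, 12.5%) and 1 lower (zfh1, 6.25%), and with the block psd was higher and Oamb and zfh1 lower. No muscle, fat body or haemocyte marker was called in either direction by edgeR or in the blocked fit, of 15, 4 and 4 tested, with 1, 0 and 1 at an unadjusted p under 0.05. Without wild-type replicate 2, bam was the one gene of these marker lists that was called.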

How the data were processed

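RNA of 6 whole-ovary and 6 OSC samples was made into poly(A)+ libraries with a stranded kit. The authors aligned reads to dm6 with STAR and estimated gene values with RSEM. The deposited tables hold expected counts, not normalized, TPM values scaled by the authors for length and depth, and transcript lengths. Strand setting and versions are not given in the sources used here. Of 17807 gene IDs, 17710 matched a symbol in the Ensembl release 115 annotation. Library totals, between 13728154 and 20244537 counts, limit precision for genes of few counts, as a bound against 3 counts covers counting error only.

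The genes were selected on the deposited TPM columns as the report states. Members and lists were chosen with earlier results of these data known, and roles were assigned from general knowledge. For tests, expected counts were rounded to whole numbers, genes above 1 CPM in at least 3 ovary or 2 OSC libraries were kept, and edgeR 4.0.16 (R 4.3.3, TMM scaling, quasi-likelihood F test) was fitted over all of them for each comparison, with Benjamini-Hochberg adjustment and a threshold of 0.05. The fit was tested on simulated data. The fits were repeated with a replicate block, with the OSC groups together, without each library in turn, with filterByExpr or no filter, with RLE scaling, and with limma-voom (limma 3.58.1) and DESeq2 1.42.0. Same-numbered ovary libraries deviated together (correlations 0.214, 0.335 and 0.273), so the numbers were taken to pair them, and blocked counts stand beside the ovary counts they change. Named genes were to be the 10 of highest mutant mean, the 10 of largest ratio (0.1 TPM added), those at 5 TPM or more in EGFP KD, called in OSCs, in a run or a list, with a gene name and a mutant mean of 5 TPM or more, and the 3 on each side of the threshold, some given only by count. Others were named after their values were seen. Copies were sought with blastn 2.17.0, and motifs in the Release 6 genome sequence. No 2 libraries of a group agreed within sampling noise.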

Additional observations from a re-analysis of the deposited data

How the results depend on the processing

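The choice of genes moved with its thresholds: 41 genes met the rule with the lowest mutant library at 5 TPM or more, 136 with a ratio of 2 and 38 with a ratio of 5, and 76 to 103 when 1 ovary library was left out. Of the 70, 22 reached 5 TPM in OSCs. Each EGFP KD library alone gave 34 or 35 at 1 TPM. In the ovary, 1438 genes were called, against 2365 with DESeq2 and 158 to 1438 without 1 library. In N KD 2 genes were called, against 7 with DESeq2, 1 with limma-voom, 26 with no filter, 0 with the OSC groups in 1 fit, and 4 to 42 without 1 library. In All KD 89 were called, against 230 with DESeq2, 188 with no filter, 178 with the OSC groups in 1 fit, and 29 to 333 without 1 library. Blocking on replicate number gave 2279 calls in ovary, 14 in N KD and 166 in All KD. The OSC pairing rests on 2 pairs (correlation 0.191 in N KD and 0.146 in All KD), and the block changed no call among the 70 genes there. The causes of these shifts were not tested.

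With 2 libraries per OSC group, and 1 where a library was left out, the lone library is assumed to vary like the other group. Genes of low level could not be compared in OSCs, since 35 of the 70 were under the count filter in each knockdown. Depth limits the 7 genes with under 20 counts in a mutant library.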
